A study of Mus musculus with 61 samples.

Results

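The 13 doxorubicin granulosa libraries were ordered by the summed CPM (counts scaled to a common library total) of 5 oocyte transcripts, Zp1, Zp2, Zp3, Nobox and Figla. The 6 libraries with the highest sum were set against the 6 with the lowest, and the library in the middle was left out, so that 12 of the 61 libraries of the series are compared. The question was which transcripts came along with this oocyte transcript load and which did not. The sum chose the sides, so the 5 transcripts in it are given as a description. Each library is labelled as 1 cell and no animal is named for any of them. No difference between the sides was therefore tested, no p-value is given, and every value describes these libraries.

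The cells came from ovaries of wild-type CD-1 mice, an outbred stock, at postnatal day 5. They were collected 6 hours after an intraperitoneal injection of doxorubicin, an anti-cancer drug that damages DNA, and their RNA was amplified as full-length cDNA. The dose is written with a unit that is not a dose unit, so it is not given here. Set beside them are 16 control granulosa libraries and 16 control oocytes from mice of the same stock and age that received the solvent, and 16 doxorubicin oocytes, all under 1 batch label.

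In the ovary of a newborn mouse each oocyte is enclosed by flattened somatic cells, the pregranulosa cells, which become the granulosa layers of growing follicles. The oocyte makes the zona pellucida, a glycoprotein coat, and stores large amounts of maternal RNA. NOBOX and FIGLA are transcription factors that switch on oocyte genes, the zona genes among them. Oocytes and granulosa cells touch through gap junctions and thin cell processes. When DNA is damaged, p53 and its relatives switch on genes of arrest, repair and cell death.

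The sum of the 5 oocyte transcripts was 9139, 7293, 6944, 4200.4, 3855 and 3472 CPM in libraries 1, 4, 6, 10, 12 and 7, which form the higher side. It was 1609 CPM in library 8, the middle library. On the lower side it was 1286, 1285, 642, 437, 412 and 112 CPM in libraries 9, 2, 15, 16, 14 and 13. Libraries 7 and 9 are thus the members next to the division, and library 8 lies nearer to library 9. The same sum was 87.1 to 3367 CPM in the control granulosa libraries and 4555 to 21233 CPM in the doxorubicin oocytes. All 6 highest libraries exceeded every control granulosa library, and 3 of them lay within the range of the oocytes.

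The 5 transcripts did not travel as a fixed mixture. Zp3, a zona glycoprotein, had 991, 2704 and 5098 CPM as lowest, median and highest value on the higher side, and its highest value on the lower side was 390 CPM. Zp2 overlapped, with 582 to 2233 CPM on the higher side and 5.44 to 704 CPM on the lower side. Nobox was highest of all in a library of the lower side, library 9, with 675 CPM, and had 96.7 to 588 CPM on the higher side. In the same library 9, Zp1 stood at 0.842 CPM and Figla at 0.590 CPM.

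Total counts were 9144917 to 13195151 over the 13 libraries, and overlapped between the sides. Genes with at least 5 reads numbered 4734 to 8463 on the higher side (median 6409.5) and 5326 to 10970 on the lower side (median 8538), against 11138 to 13591 in doxorubicin oocytes. After thinning each library to the smallest total the medians were 6193.5 and 8340, so fewer genes were detected on the higher side at equal depth too. Across the 13 libraries the number of detected genes had a Spearman correlation of -0.62 with the oocyte load. The part of this difference in the results below was not tested.

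The label was checked against markers. Oocyte-type genes were defined from the control libraries alone, as the 186 genes that reached 100 CPM in control oocytes, exceeded the control granulosa level 10 times or more and had 5 reads or more in each of the 16 control oocytes, the 5 ranking genes left out. The 560 granulosa-type genes were defined the other way round, with at least 20 CPM and at least 5 reads in at least 8 libraries. With the 5 ranking genes added, oocyte-type genes took 2.15% to 5.13% of the counts on the higher side and 0.396% to 1.67% on the lower. In doxorubicin oocytes they took 5.66% to 11.2%. Granulosa-type genes took 4.39% to 12.2%, 11.1% to 16.1% and 0.199% to 3.42% in the same order. In libraries 1 and 6 the oocyte-type share was the larger of the pair. The other 11 libraries held more counts of granulosa-type genes.

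The 22 granulosa markers summed to 685 to 10106 CPM on the higher side and 2683 to 10309 CPM on the lower side, and between 5 and 15 of them had at least 5 reads in a library of the higher side, against 10 to 20 on the lower side. Foxl2, the transcription factor that keeps granulosa cells from becoming testis-like, stood at 0 CPM in libraries 4, 6 and 10. Library 6 had the smallest sum, with Inha at 2.31 CPM and Gatm at 1.57 CPM, although both genes are abundant in most of the other libraries. Libraries of this set are therefore called by their label and number, not by a cell type. Whether oocyte transcripts came from an oocyte, from part of one or from free RNA cannot be told apart in these counts.

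**Figure D1:**
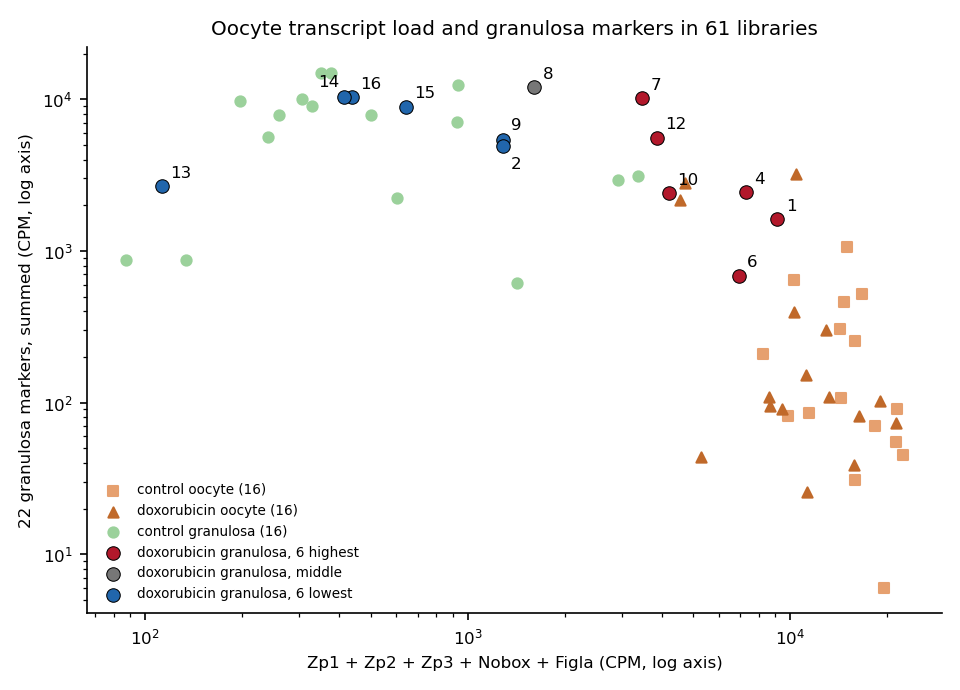
Summed CPM of Zp1, Zp2, Zp3, Nobox and Figla (x axis, log scale) against the summed CPM of 22 granulosa markers (y axis, log scale), 1 point per library, 61 libraries, with the doxorubicin granulosa libraries numbered. The 6 highest libraries lie between 3472 and 9139 CPM on the x axis, next to the doxorubicin oocytes, and library 6 has the lowest granulosa sum of the 13.

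The value compared is the log2 ratio of summed CPM, the 6 highest libraries over the 6 lowest, for genes with at least 5 CPM on either side. A side under 3 reads was set to 3 reads. A gene was called where this ratio was at least 1, or at most -1, over all 12 libraries and again when each library was left out. Beside this, a gene was counted as not overlapping where every library of 1 side was above every library of the other. Of 11884 genes, 1092 (9.19%) were called higher with oocyte load and 2454 (20.6%) lower. Only 49 (0.412%) were higher and 33 (0.278%) lower with no overlap. The median over all genes was -0.19. With DESeq2 size factors this median moved to 0.80 and the calls to 2773 higher and 1606 lower, so the balance of higher and lower calls depends on the scaling, and gene groups are read below against the median of all genes.

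Intervals given with log2 ratios are 95% exact binomial intervals that take every read as a separate count. They cover the counting of reads only. PCR copies carry no molecular identifier here and cannot be counted as separate molecules, so the intervals may be too narrow for molecules. The spread between libraries was far wider. It is shown by the values of the single libraries.

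The genes called higher leaned towards those that oocytes express. Of the 1092 genes, 811 (74.3%) had a higher level in oocytes than in granulosa libraries of the controls, against 48.5% of all genes used. Among the 49 without overlap the count was 45 (91.8%). Of the genes called lower, 1025 of 2454 (41.8%) were higher in control oocytes. The genes called higher also had shorter transcripts, with a median of 2316 bases for the longest annotated transcript, against 3797 bases for genes called lower and 3255.5 bases for all genes used.

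Oocyte-type genes were higher as a group, but not as a block. Of the 186 genes, 173 passed the filter and 65 (37.6%) were called higher, where 9.19% of all genes were. The 18 called lower were 10.4%, where 20.6% of all genes were. With no overlap 6 were higher (0.412% of all genes were), namely Ccno, Gdf9, Nlrp14, Oas1h, Pkd2l2 and Tle6. The median log2 ratio of the 173 was 1.502 and single genes ran from -8.83 to 10.31. Without library 6 the median was 1.03, and without library 2 it was 2.08. When the medians of the libraries were compared in place of summed counts it was 0.24, because many oocyte-type genes were high in a few libraries of the higher side and near 0 in the rest.

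**Figure D2:**
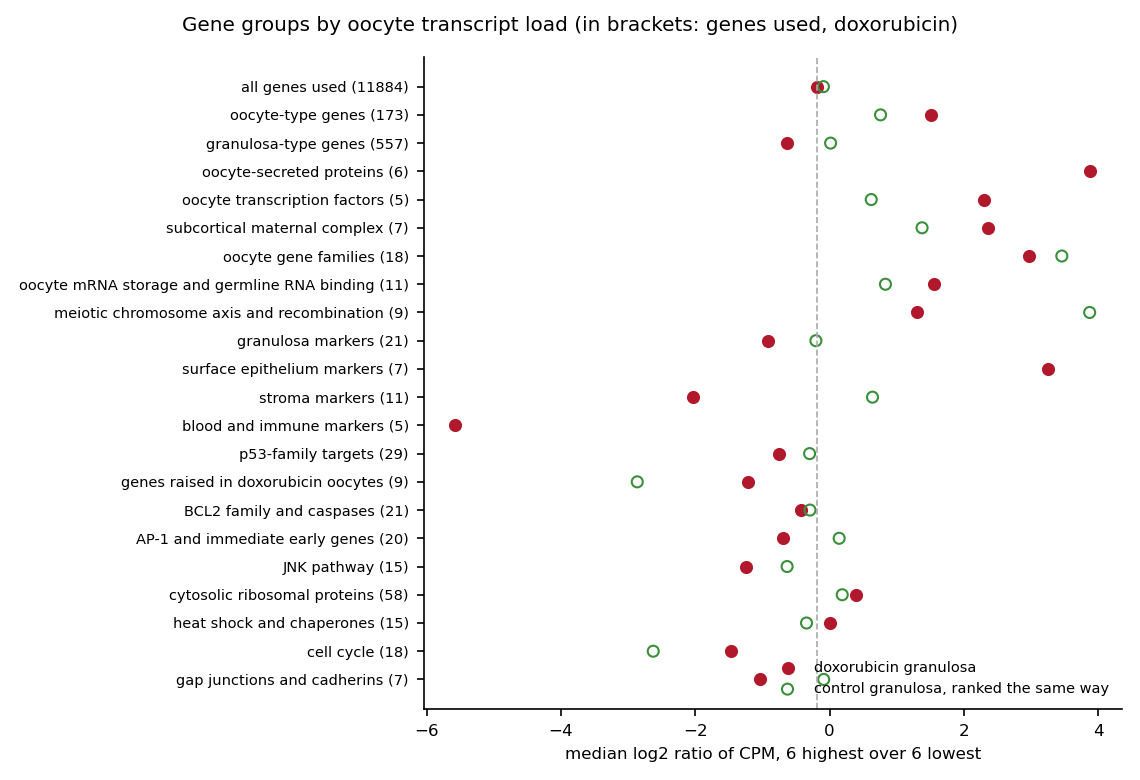
Median log2 ratio of CPM, 6 highest over 6 lowest libraries (x axis), for each gene group (y axis, with the number of genes used), in doxorubicin granulosa libraries (filled) and in control granulosa libraries ranked by the same sum (open, drawn where at least 5 genes were used). The dashed line is the median of all genes, -0.19, and the oocyte groups lie to its right at 1.31 to 3.88.

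Proteins that the oocyte secretes or carries on its surface were higher with load. Of 7 such genes with a row, 6 were used and all 6 had a higher value. Of these, 4 (66.7%) were called higher, where 9.19% of all genes were, namely Gdf9, Oosp1, Oosp2 and Izumo1r. The median was 3.88, and it was 2.80 without library 1 and 8.59 without library 2. Gdf9, a growth factor by which the oocyte directs granulosa cells (chr11:53431023-53437904, plus strand), had 8052, 3554, 5271, 1052, 2148 and 1985 CPM in libraries 1, 4, 6, 10, 12 and 7. It had 858, 769, 104, 0.281, 299 and 0.504 CPM in libraries 9, 2, 15, 16, 14 and 13. The sides did not overlap and the log2 ratio was 3.41 (3.40 to 3.43).

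Bmp15, the partner of Gdf9, was sparse. It had 133 CPM in library 10 and no more than 37.9 CPM elsewhere, with 5 reads in 1 library of each side, and was not called. Izumo1r, the oocyte receptor for sperm, reached 219 CPM on the higher side and 1.85 CPM on the lower side, with a log2 ratio of 7.61 (7.03 to 8.25), but stood at 0 CPM in libraries 4 and 12 of the higher side. Oosp2, an oocyte-secreted protein, had reads in 4 of the 6 highest libraries and in none of the 6 lowest, which puts its ratio at a log2 value of at least 9.33 with 3 reads allowed on the lower side.

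Oocyte transcription factors split. Of 8 genes with a row, 5 were used, with a median of 2.29. Sohlh1, Pou5f1 and Foxo3 were called higher, which is 60.0%, where 9.19% of all genes were. Sohlh1, a factor of early oocyte differentiation, had 0.577, median 365 and 769.7 CPM on the higher side against 0.243, median 41.2 and 195 CPM on the lower side, so the sides overlapped. Lhx8, a factor needed for the same step, was nearly absent from every library, with at most 3.42 CPM on the higher side and 2.78 CPM on the lower. Doxorubicin oocytes had 95.3 to 339 CPM of it. Trp63, which encodes the p53-family guardian of oocytes, and Sohlh2 and Tbpl2 were also low, at 1.07, 10.2 and 0.0798 CPM in the 6 highest libraries together.

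The subcortical maternal complex, a protein assembly under the oocyte membrane that the early embryo needs, was higher with load as well. Of 8 genes 7 were used and all 7 had a higher value. Of these, 6 (85.7%) were called higher, where 9.19% of all genes were, with Tle6 and Nlrp14 free of overlap. The median was 2.36. Padi6 had 3148, median 5072 and 9885 CPM on the higher side and 69.0, median 654 and 3460 CPM on the lower side, where library 9 alone was above the lowest library of the higher side. Ooep overlapped through the same library, with 2160 to 8946 CPM against 79.5 to 2248 CPM. Tle6 had 1270 to 3778 CPM against 50.9 to 1089 CPM. Nlrp5 was the exception, with 7.68 to 954 CPM on the higher side and 0.468 to 459 CPM on the lower side, and was not called.

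Oocyte-specific gene families gave 10 called higher of 18 used (55.6%, where 9.19% of all genes were), none called lower, and a median of 2.97. These families have near-identical copies, so reads may be split between members and single values are uncertain. Oas1d, an oocyte relative of the antiviral 2-5A synthetases, had 527 to 3479 CPM against 0.892 to 558 CPM. Fbxw24, an oocyte F-box gene, had 47.0 to 718 CPM against 0 to 60.7 CPM. Nlrp4f stood at 1.197 CPM in the 6 highest libraries together, and Nlrp4b had no read in any of the 12 libraries.

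Germline RNA-binding genes were mixed as well. Of 11 used, Zar1, Dazl, Ybx2 and Mael were called higher (36.4%, where 9.19% of all genes were) and none lower. The median was 1.56. Zar1, an RNA-binding protein that holds maternal transcripts in store, had 656, median 986 and 3523 CPM on the higher side and 16.4, median 87.8 and 485 CPM on the lower side, with no overlap. Ddx4, the vasa helicase that marks germ cells, had at most 2.23 CPM on the higher side and 0.834 CPM on the lower side, against 177 to 448 CPM in doxorubicin oocytes. It was below the filter and is not among the 11.

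Genes of the meiotic chromosome axis gave 3 called higher (Sycp3, Syce1 and Syce2) and 2 called lower, Stag3 among them, of 9 used. These are 33.3% and 22.2%, where 9.19% and 20.6% of all genes were so called. Sycp3, the axis protein of synapsed chromosomes, was the steadiest gene of the set, with 213 to 344 CPM in all 6 highest libraries and 10.0 to 127 CPM in the 6 lowest. Its log2 ratio was 1.81 (1.76 to 1.86) and ranged from 1.57 to 2.02 when each library was left out. Stag3, a meiotic cohesin, had at most 0.208 CPM on the higher side, and on the lower side 39.0 and 43.1 CPM in libraries 15 and 13 and at most 0.0937 CPM in the others. Sycp2, Tex12, Hormad1 and Msh5 were at or near 0 on both sides.

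The largest gaps between the sides were not all at known oocyte genes. Among genes higher with load the widest gap belonged to A530040E14Rik, annotated as an antisense transcript (chr1:85105946-85114035, plus strand, GRCm38). It had 304, 375, 420.4, 150.1, 196 and 171 CPM in libraries 1, 4, 6, 10, 12 and 7, and 0.168, 18.9, 11.3, 0, 0 and 16.8 CPM in libraries 9, 2, 15, 16, 14 and 13. The log2 ratio was 5.16 (5.04 to 5.29). Its level on the higher side was also above every doxorubicin oocyte (1.87 to 67.9 CPM), every control oocyte (up to 94.5 CPM) and every control granulosa library (up to 33.1 CPM). The sources used here do not say whether strand was used in counting, so reads of this transcript and of genes on the other strand cannot be told apart.

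Gm10553, the next gene in that order, lies 5410 bases away on the same strand (chr1:85100164-85100535). It had 23.6 to 84.6 CPM on the higher side and 0 to 3.24 CPM on the lower side. The 2 genes kept a near-constant proportion, with 3.996 to 6.36 counts of A530040E14Rik for each count of Gm10553 in the 6 highest libraries. They are neighbours and may share reads, so they are not counted as separate observations.

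Ccno, Dppa3, Cpsf4l, Gja4 and Sycp3 followed. Ccno, which encodes cyclin O, had 277 to 991 CPM against 0.187 to 59.0 CPM, a log2 ratio of 5.50 (5.40 to 5.59), and matched the doxorubicin oocytes, which had 267 to 1012 CPM. Dppa3, a maternal factor that guards DNA methylation in the early embryo, had 1837 to 5274 CPM against 23.1 to 779 CPM. Gja4, which encodes connexin 37, the gap junction protein on the oocyte side, had 208 to 2029 CPM against 0.0937 to 123 CPM. Dusp12, a dual-specificity phosphatase, had 157 to 569 CPM against 0 to 96.2 CPM, and all 6 highest libraries exceeded every control granulosa library. Cops3, Ppp1r7, Cmc2 and Txndc9, which encode a COP9 signalosome subunit, a phosphatase regulator, a cytochrome oxidase assembly factor and a thioredoxin-domain protein, completed the 12 genes, with log2 ratios of 1.69 to 3.34. Except for the chromosome 1 pair, the 12 genes had at least 76.4 CPM in control oocytes.

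The 12 genes with the largest gaps in the other direction were present in all 6 lowest libraries and low or near 0 in the 6 highest. Wdr41, a partner of the C9orf72 complex (chr13:94976344-95023314, plus strand), had 31.8 to 241 CPM in the 6 lowest libraries and 6 reads in total in the 6 highest. Ddx20, a helicase of the SMN complex, and Dbp, a clock-controlled transcription factor, had 3 reads each in the 6 highest libraries, and log2 ratios of -11.26 (-13.54 to -9.72) and -10.48 (-12.76 to -8.93). Pdia4, a disulfide isomerase of the endoplasmic reticulum (chr6:47796141-47813430, minus strand), was the most even on the lower side, with 482 to 660 CPM in all 6 libraries, and had 0.0882 to 220 CPM on the higher side. Enoph1, Acadsb, Slc39a10, Ccpg1, Qrich1, Lrrfip2, Rfk and Pim3 were the others, with log2 ratios of -9.71 to -3.46.

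Of the 33 genes without overlap in this direction 1 was granulosa-type, where 557 of all 11884 genes were. At least 2-fold higher levels in control granulosa libraries were found for 9 of the 33, and in control oocytes for another 9. These are 27.3% each, close to the 31.4% and 28.2% of all genes used. Rfk, riboflavin kinase, had 327 CPM in control oocytes and 103 CPM in control granulosa libraries, and Qrich1 had 374 and 118 CPM. In library 8, the middle library, Wdr41, Ddx20, Dbp, Pim3 and Ccpg1 were also under 1 CPM, whereas Enoph1, Qrich1 and Acadsb were within the range of the lower side. The 6 highest libraries had fewer detected genes than most of the lower side, and the part of that in these values was not tested.

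**Figure D3:**
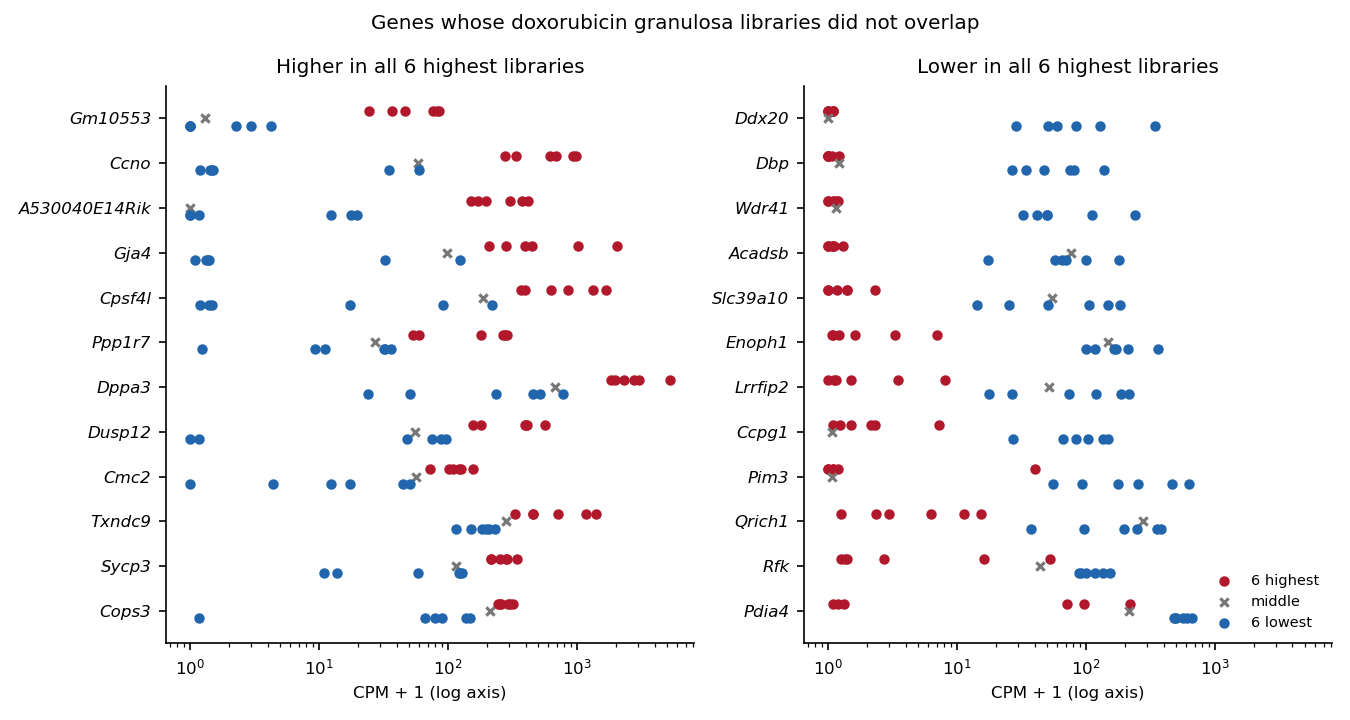
CPM + 1 (x axis, log scale) in each doxorubicin granulosa library for the 12 genes with the widest gap in each direction (y axis), with the 6 highest, the middle and the 6 lowest libraries as separate marks. Points of the 2 sides do not overlap for any gene drawn, and genes on the right stay near 0 CPM on the higher side, apart from single libraries such as 220 CPM of Pdia4.

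Each oocyte-type gene was then set against its level in doxorubicin oocytes. The share is the CPM in the 6 highest libraries together as a percent of the CPM in the 16 doxorubicin oocytes together. Its median over 186 genes was 22.6%, with quartiles of 6.89% and 50.6%. Within single libraries it was far lower, with a median over the same genes of 0.145% to 5.30% in the 6 highest libraries. In single doxorubicin oocytes that median was 64.3% to 115%. For 15 genes it was above 100% and for 26 genes under 1%. It spanned from 0% to 652%, so the oocyte-type genes did not stand in the proportions found in oocytes. In doxorubicin oocytes 180 of the 186 genes had at least 5 reads in all 16 cells. In the 6 highest libraries 32 genes had at least 5 reads in all 6, 62 genes in 1 or 2 and 9 genes in none.

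The genes with the highest share were Gdf9, Fbxw24, Polrmt, Map3k6, Tspan33 and Fbxw18. Gdf9 stood at 3678 CPM in the 6 highest libraries and 564 CPM in doxorubicin oocytes, a share of 652%, and 5 of the 6 libraries were above every oocyte of either treatment. Fbxw24 had a share of 356%. Polrmt, the mitochondrial RNA polymerase, owed its 186% to 2 libraries with 5 reads or more. Its level did not differ with load, at 139 CPM on the higher side and 138 CPM on the lower. Map3k6, a kinase of the stress-activated cascades, had 183%. Outside this definition, Khdc3 and Zar1 had shares of 690% and 542%. Khdc3 belongs to the maternal complex, and all 6 libraries were above every oocyte.

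The genes with the lowest share were Chtf18, Kntc1, Chaf1a, Spg11, Pomgnt2 and Cds1. The 6 lowest libraries together held 5.55 to 68.7 CPM of each, with at least 5 reads in 1 to 3 of them. Chtf18, which encodes a clamp loader subunit, had no read in the 6 highest libraries, which allows a share of up to 0.0373% of its 128 CPM in doxorubicin oocytes. Kntc1, a kinetochore protein, Chaf1a, a histone chaperone, and Spg11, a lysosomal protein, had shares of 0.0345%, 0.0392% and 0.0525%. The germ cell genes Ddx4, Piwil2, Tdrd1 and Tdrd9, chosen after their values were seen, lay under 1% as well. Ddx4 had 0.223%, Piwil2 0.473%, Tdrd1 0.723% and Tdrd9 0.799%, while Mael, Tdrd5 and Mov10l1, which act in the same germline pathway of small RNAs, had 48.0%, 23.2% and 8.01%. The zona and factor genes used for ranking had 106% for Zp3, 70.9% for Zp1, 24.3% for Zp2, 25.1% for Nobox and 74.3% for Figla.

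Shares were lower for genes with long transcripts. The 61 genes with the shortest transcripts (802 to 2832 bases) had a median share of 35.1%, with quartiles of 22.04% and 61.7%. The 61 genes of middle length had 18.5% and the 62 longest genes (4314 to 22489 bases) 13.4%. Across the 184 genes with an annotated length the Spearman correlation of share and length was -0.31, and -0.39 among the 92 genes with the higher oocyte levels. These are correlations across genes in the same libraries, and genes are not independent replicates. The level in oocytes itself had a correlation of -0.04 with the share, and the quartiles of the length classes overlapped widely.

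**Figure D4:**
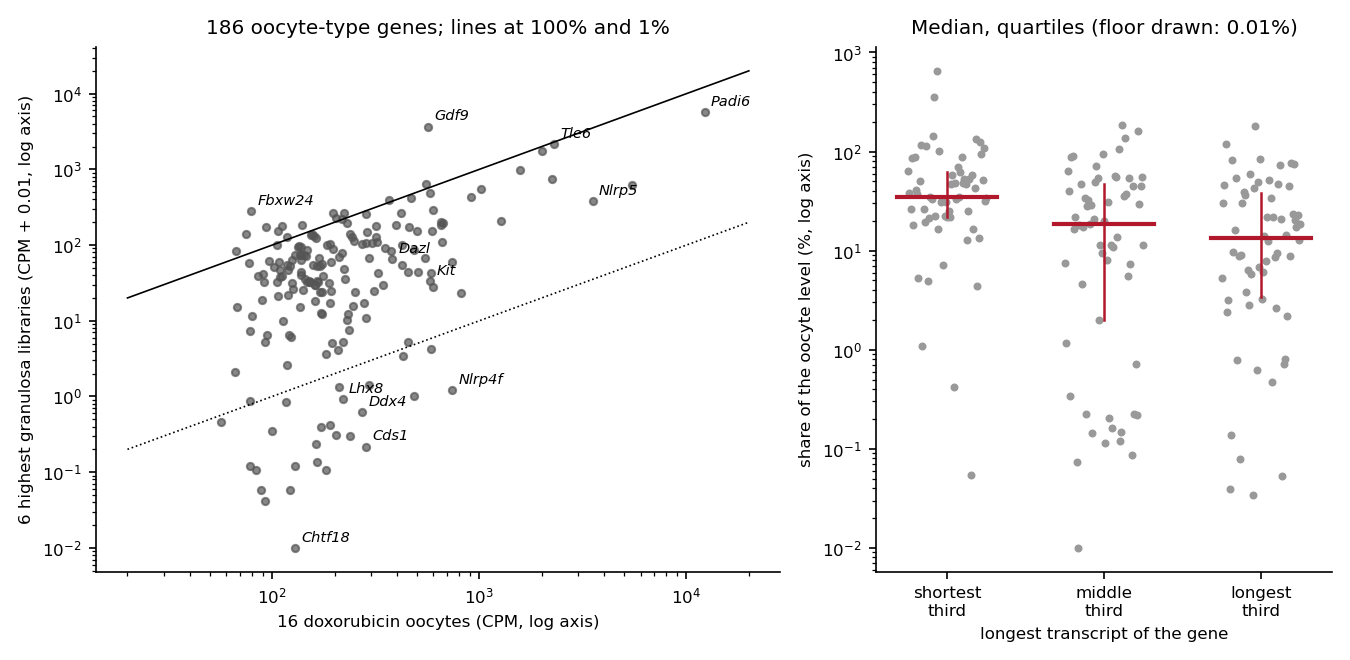
Left, CPM of 186 oocyte-type genes in the 16 doxorubicin oocytes (x axis, log scale) against CPM + 0.01 in the 6 highest granulosa libraries (y axis, log scale), with lines at 100% and 1%. Right, share of the oocyte level (y axis, percent, log scale) for genes grouped by transcript length, with median and quartiles, where the medians are 35.1%, 18.5% and 13.4% from short to long.

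Promoters of 4 genes are shown because of their levels in these libraries. Zp3 is a ranking gene and high by the choice of the sides, Zar1 was higher without overlap, and Ddx4 and Lhx8 stayed near 0 CPM. The sequences are from RefSeq (GRCm38.p6), from 250 bases before to 50 bases after the start of each gene, 5′ to 3′ on the gene's strand. Capitals mark the E-box CANNTG, the motif that FIGLA and its partners read, which is the same on both strands. They lie at chr5:135979855-135980154 (plus strand) for Zp3, chr5:72581035-72581334 (minus strand) for Zar1, chr13:112652261-112652560 (minus strand) for Ddx4 and chr3:154330511-154330810 (minus strand) for Lhx8.
Zp3: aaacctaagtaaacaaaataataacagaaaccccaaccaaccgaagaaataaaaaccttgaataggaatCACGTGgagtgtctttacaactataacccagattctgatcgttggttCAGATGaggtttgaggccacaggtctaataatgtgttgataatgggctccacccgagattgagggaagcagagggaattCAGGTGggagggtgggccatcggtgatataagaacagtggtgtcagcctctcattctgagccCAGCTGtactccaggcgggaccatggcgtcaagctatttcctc
Zar1: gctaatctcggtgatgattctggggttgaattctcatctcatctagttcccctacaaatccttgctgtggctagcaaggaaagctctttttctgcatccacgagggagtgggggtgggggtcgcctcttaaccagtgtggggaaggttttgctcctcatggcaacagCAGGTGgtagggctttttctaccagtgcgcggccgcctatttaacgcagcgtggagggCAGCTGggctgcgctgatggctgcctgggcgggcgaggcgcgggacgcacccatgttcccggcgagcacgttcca
Ddx4: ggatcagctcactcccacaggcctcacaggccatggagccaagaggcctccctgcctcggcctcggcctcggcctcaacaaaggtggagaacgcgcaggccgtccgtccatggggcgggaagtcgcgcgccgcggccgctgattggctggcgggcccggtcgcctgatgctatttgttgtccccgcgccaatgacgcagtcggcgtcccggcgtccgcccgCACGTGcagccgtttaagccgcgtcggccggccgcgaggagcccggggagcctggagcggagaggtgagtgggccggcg
Lhx8: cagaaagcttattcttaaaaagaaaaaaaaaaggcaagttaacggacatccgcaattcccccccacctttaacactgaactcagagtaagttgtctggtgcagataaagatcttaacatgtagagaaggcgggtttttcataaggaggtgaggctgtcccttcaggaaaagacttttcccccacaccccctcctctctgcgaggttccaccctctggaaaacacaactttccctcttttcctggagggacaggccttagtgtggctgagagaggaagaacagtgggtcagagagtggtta

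Zp3 holds 4 such matches, Zar1 holds 2, Ddx4 holds 1 and Lhx8 none. The E-box is common, and 72.1% of 27025 promoters of this length in the table held it. It was in 74.4% of the 156 oocyte-type genes with a promoter there, in 81.5% of the 54 called higher and in 81.0% of the 21 with a share under 1%. The homeobox motif TAATTG, with its reverse CAATTA, was in 8.15% of all promoters and in 5.13% of the oocyte-type ones. A match is a description of these letters and not a binding site.

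Granulosa-type genes had a median below that of all genes. Of 560 genes 557 were used, 135 (24.2%) were called lower and 21 higher, against 20.6% and 9.19% of all genes. Their median was -0.63, and 0.28 with DESeq2 size factors, under which the median of all genes was 0.80. The 22 granulosa markers had 5 called lower of 21 used (23.8%), namely Wnt4, Nr5a1, Gata4, Bmp2 and Krt8. None was called higher, and the median of the markers was -0.93. Wnt4, a signal of ovarian fate, had 124 CPM in library 10 and at most 0.519 CPM in the other 5 of the higher side. On the lower side it had 0, median 262 and 799 CPM. Amhr2, the receptor of anti-Mullerian hormone, had 23.98 to 1132 CPM and 359 to 1283 CPM on the higher and the lower side and was not called.

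Markers of other cell types moved with single libraries. Stroma markers gave 5 called lower of 11 used (Col1a1, Col1a2, Mfap4, Pdgfra and Tcf21). These are 45.5%, where 20.6% of all genes were called lower. The median of the 11 was -2.03, and -0.53 without library 13, whose stroma sum of 11287 CPM was the largest of the 13. On the higher side the stroma sum was 106 to 2533 CPM. Of 7 surface epithelium markers used, Epcam, itself an oocyte-type gene, and Lgr5 were called higher (28.6%, where 9.19% of all genes were). The median of these markers was 3.26 and turned to -5.71 without library 6. That library held 639 CPM of Upk3b, 668 CPM of Krt7 and 662 CPM of Krt19, keratins and a uroplakin of the ovarian surface. Haemoglobin transcripts of library 15 gave a blood and immune sum of 35132 CPM, while the other 5 of the lower side had 4.06 to 52.99 CPM. The 6 highest libraries had 53.5 to 347 CPM, mostly haemoglobin, so apart from library 15 the sum was higher with load. Its Spearman correlation with the load was 0.65 over the 13 libraries. The part of blood RNA in the other results was not tested. The defining immune genes Ptprc and C1qa stood at 0 CPM in all 13 libraries.

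Targets of the p53 family were called lower about as often as all genes. Of 30 genes 29 were used and 6 were called lower (20.7%, where 20.6% of all genes were). Only 1, Ddb2, was called higher (3.45%, where 9.19% of all genes were). The 6 were Fas, Plk3, Rrm2b, Sesn2, Sulf2 and Tigar. The list had a median of -0.75, and 0.17 with DESeq2 size factors. Its summed level was 2108, median 3864 and 6026 CPM on the higher side and 3110, median 5879 and 15109 CPM on the lower side, so the sides overlapped. The control granulosa libraries had a median of 1679 CPM. Across the 13 libraries the Spearman correlation of the p53 sum with the oocyte load was -0.27.

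Cdkn1a, the p53 target that encodes the cell cycle inhibitor p21, divided the higher side. It had 7.89 and 0.577 CPM in libraries 1 and 4, the 2 libraries with the most oocyte transcripts. In libraries 6, 10, 12 and 7 it had 2077, 720.0, 980 and 383 CPM. In the 6 lowest libraries it had 4606, 2837, 649, 537, 498 and 352 CPM, in the order 9, 2, 15, 16, 14 and 13. All 6 lowest libraries, library 8 with 1178 CPM and 4 of the 6 highest exceeded every control granulosa library, the highest of which had 126 CPM. The log2 ratio of the sides was -1.23 (-1.24 to -1.21), it ranged from -2.02 to -0.48 when each library was left out, and Cdkn1a was not called. In doxorubicin oocytes it had 7.90 to 289 CPM.

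Libraries 1 and 4 were low in some other targets and high in others. They also had the fewest genes with at least 5 reads of the 13 libraries, 4734 and 5053. Of the 30 targets, 19 and 14 had at least 5 reads in them, against 16 to 27 in the others. The part of this in their target values was not tested. In library 1, 6 of the 30 targets exceeded every control granulosa library and in library 4 it was 4, against 7 or 8 in the other 4 of the higher side and 3 to 17 on the lower. Polk, a polymerase that copies past DNA lesions, had 480 CPM in library 1, and Xpc, a damage sensor, had 467 CPM in library 4. Ccng1, cyclin G1, had 20.4 and 0.495 CPM in libraries 1 and 4 and 195 to 479 CPM in the other 4 of the higher side. Phlda3, a brake on AKT, was at 0 to 0.0824 CPM in libraries 1, 4 and 12 and at 62.1 to 227 CPM in all 6 lowest. Mdm2, the ligase that destroys p53, had 774 CPM in library 1. Bax, an effector of cell death, had 87.7 to 525 CPM on the higher and 162 to 285 CPM on the lower side. Trp53inp1 exceeded every control granulosa library in 5 of the 6 highest and 3 of the 6 lowest libraries. Ddb2, a damage recognition protein and the target called higher, is itself an oocyte transcript, with 205 CPM in control oocytes and 22.2 CPM in control granulosa libraries.

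**Figure D5:**
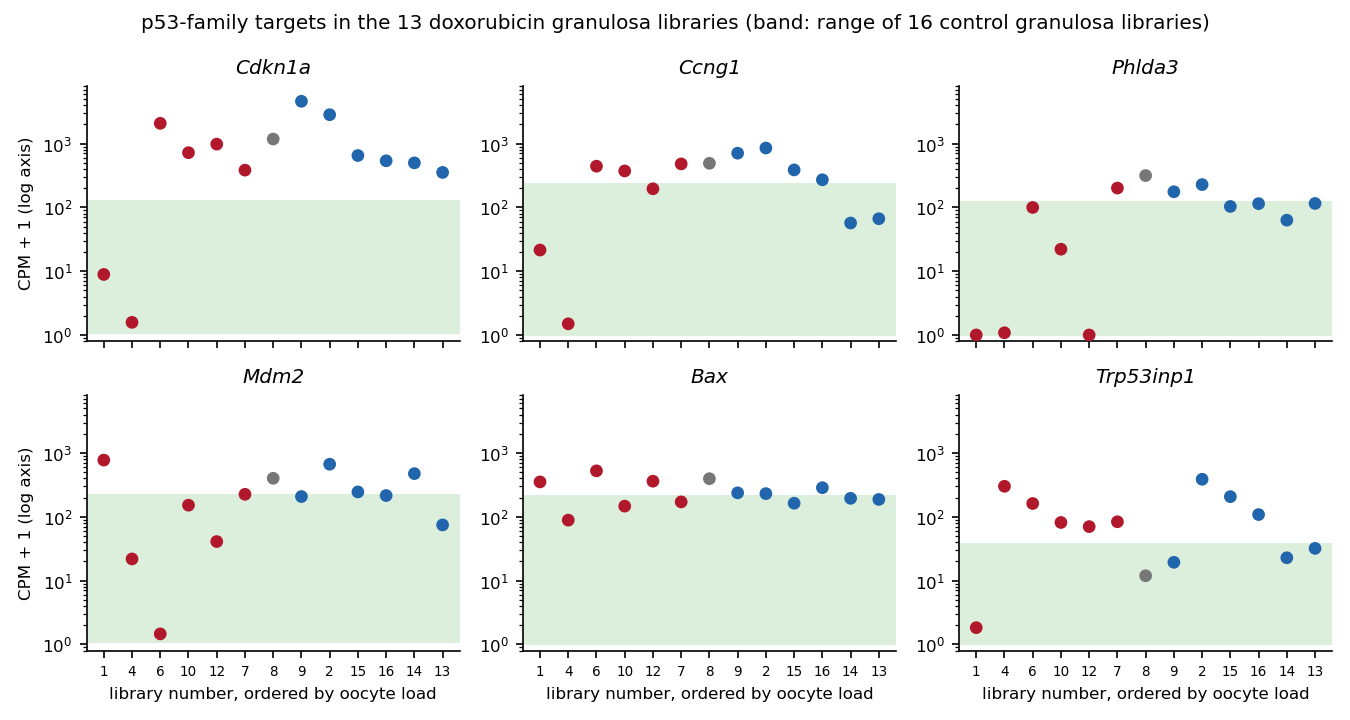
CPM + 1 (y axis, log scale) of 6 p53-family targets in the 13 doxorubicin granulosa libraries, ordered from the highest to the lowest oocyte load (x axis, library numbers), with the range of the 16 control granulosa libraries as a band. Cdkn1a lies above the band in 11 of the 13 libraries, and libraries 1 and 4, at the left, are the exceptions at 7.89 and 0.577 CPM.

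Genes found raised in doxorubicin oocytes in an earlier look at the same data gave no common direction. Of 9, D630023F18Rik was called higher and Prickle3 lower, 11.1% each, where 9.19% and 20.6% of all genes were so called. The list, which is not independent of these data, had a median of -1.21. D630023F18Rik had 101 CPM in library 1 and 44.0 CPM in library 10, and no more than 0.185 CPM elsewhere. Fermt3, an integrin activator, had 290 CPM in library 6, 683 in library 9 and 113 in library 2. The BCL2 family and caspases gave none called higher and 6 called lower of 21 used (28.6%, where 20.6% of all genes were), among them Bcl2l11, Bid, Casp2, Casp9 and Xiap, with a median of -0.43, or 0.50 with DESeq2 size factors. Each of those named stood at 0 CPM in at least 1 library of the higher side, such as Casp9 with 0 to 104 CPM there and 0.0927 to 256 CPM on the lower side.

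Immediate early genes, those of AP-1 among them, which switch on within minutes of stress or growth signals, had 5 of 20 called lower (Egr1, Egr2, Nr4a1, Zfp36 and Dusp1), where 20.6% of all genes were, and none higher. The median was -0.69, or 0.21 with DESeq2 size factors. Their summed level was 3455 to 10847 CPM on the higher side and 7295 to 24198 CPM on the lower, and was 83.5 to 2689 CPM in doxorubicin oocytes, so all 6 highest libraries were above every oocyte. Egr1 had 50.2, median 822 and 1853 CPM on the higher side and 1506, median 2722 and 4933 CPM on the lower side. Jun was not called, with 9.03 CPM in library 1 and 443 to 1953 CPM in the other 5 of the higher side. The sum had a Spearman correlation of -0.64 with the load across the 13 libraries.

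The JNK pathway, a kinase cascade that the title of the series names, gave 5 called lower (Map2k4, Mapk9, Map3k12, Dusp10 and Sh3rf1) and Map3k5 called higher of 15 used, where 20.6% and 9.19% of all genes were, with a median of -1.25, or -0.35 with DESeq2 size factors. Its summed level was 1.97 CPM in library 1 and 327 to 739 CPM in the other 5 of the higher side, against 529.7 to 1389 CPM on the lower side. Map2k4, a kinase that activates JNK, had 179 and 69.7 CPM in libraries 6 and 10 and at most 0.416 CPM in the other 4, against 29.0 to 501 CPM. Map3k5, the stress kinase ASK1, was higher through libraries 12 and 7, with 81.1 and 23.9 CPM. Oocytes express it at 103 CPM in controls.

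Housekeeping groups differed among themselves. Of the 58 cytosolic ribosomal protein genes none was called in either direction, 51 had a ratio above 0 (5452 of 11884 over all genes), and the median was 0.39 against -0.19 for all genes. Their sum was 20647 to 48934 CPM on the higher side and 21333 to 38272 CPM on the lower. Of 15 heat shock and chaperone genes 1 was called lower (6.67%, where 20.6% of all genes were), the mitochondrial chaperone Hspd1. It had 1.45 to 136 CPM against 145 to 603 CPM and no overlap. The median of the 15 was 0.01. Cell cycle genes had 4 called lower of 18 used (22.2%, where 20.6% of all genes were). Their median was -1.48, and 0.16 without library 16, a library with 1514 CPM of Top2a, a topoisomerase of dividing cells. Birc5, survivin, was called higher, and oocytes hold more of it than granulosa libraries (474 and 177 CPM in controls).

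Of the 2 gap junction partners named here only Gja4 was called. Gja4, the oocyte connexin, was higher without overlap, as given above. Gja1, the granulosa connexin 43, had 89.8, median 257 and 761 CPM on the higher side and 91.9, median 599 and 1703 CPM on the lower, with a log2 ratio of -1.03 (-1.05 to -1.01) that shrank to -0.49 when a library was left out, so it was not called. Kit, the receptor on the oocyte, had 215 CPM in library 12 of the higher side and 193 CPM in library 2 of the lower. The other libraries had at most 1.53 CPM, so the log2 ratio of Kit, 0.10 (0.01 to 0.19), rests on libraries 12 and 2. Kitl, its ligand from granulosa cells, had 618 CPM in library 1 and at most 33.5 CPM in the other 5.

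The 16 control granulosa libraries, which had no part in choosing the sides, were ranked by the same sum. Their 6 highest had 603 to 3367 CPM and their 6 lowest 87.1 to 307 CPM, so the range of load was smaller. Of 11478 genes, 964 (8.4%) were called higher and 1793 (15.6%) lower, while 3 (0.0261%) and 18 (0.157%) did not overlap. Of the oocyte-type genes 33 of 142 were called higher and 24 lower, with a median of 0.76 against -0.09 for all genes. The secreted proteins, of which only 4 were used, had a median of 6.04, and the maternal complex had 1.38 with 3 of 7 called higher. Granulosa-type genes had a median of 0.01, close to the -0.09 of all genes there.

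The calls of the 2 rankings were then compared. Of the 1092 genes called higher after doxorubicin 844 could be used in the control ranking, where 113 were called higher and 123 lower. Of all 10171 genes used in both rankings, 833 and 1629 were so called. Of the 49 without overlap 43 could be used, and 10 were called higher and 1 lower. Gdf9, Zar1, Ooep, Padi6, Dppa3, Ccno and Sycp3 had log2 ratios of 2.33, 2.74, 2.66, 2.50, 2.45, 3.25 and 3.87 in the control ranking. A530040E14Rik was at 0.0484 and 3.83 CPM on the higher and the lower side there, below the filter, and Dusp12 had a ratio of -2.41. Ddx4 and Lhx8, which were near 0 throughout the doxorubicin libraries, had 5.44 and 5.17 CPM in the 6 highest control libraries. The median share of the control oocyte level was 3.03% there. The definition of oocyte-type genes required a control oocyte level at least 10 times that of the control granulosa libraries. It therefore limits this share in advance, and the share cannot be set against that of the doxorubicin libraries. The share per gene had a Spearman correlation of 0.22 between the 2 groups, across 186 genes.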

How the data were processed

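What the authors deposited is a single table of estimated counts, 23927 gene rows by 61 library columns, and all columns were used. The submitters' processing notes name Partek, Bowtie2, HISAT2, DESeq2 and the mm10 build, without their roles, and the annotation is not given in the sources used here. Of the nonzero values 34.0% are not whole, and all were rounded. Rows whose symbol had become a date (22, with 0.144% of the counts) stayed in the totals and are never named. CPM is relative to the column total.

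Replicate numbers are the labels' own and name libraries only. The members, lists and thresholds were chosen with earlier results of these data known. The genes named are a panel of 39, the 12 genes each way with the widest gap (at least 50 CPM on the side where they are higher), and the 6 highest and 6 lowest oocyte shares. Other members of the lists were named after their values were seen. Positions and transcript lengths are from GENCODE M21 (GRCm38), matched by symbol. Simulated counts in which 200 of 23927 genes differed by a log2 ratio of 2 gave back medians of 1.89 and -1.92. Their sides were not chosen by a ranking, so this checks the computing of the ratio and not how often calls are false. Python 3.11.15, pandas 2.3.3, scipy 1.17.1, R 4.3.3, edgeR 4.0.16 and DESeq2 1.42.0 were used, the last 2 for scaling factors only. Some members of the lists are not reported here by name.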

Additional observations from a re-analysis of the deposited data

Results flagged for a closer look

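In 48 groups of 6 libraries the library farthest from the others was set against Dixon's limit of 0.625 of the group's range. Normally distributed values pass it in about 1 in 20 groups. It was passed 9 times. Many of these sums are low in most libraries and high in single ones, and the groups share libraries. The rate for normal values therefore does not apply, and the limit serves only to pick out libraries. On the higher side library 6 had 2282 CPM of surface epithelium markers (the others 9.95 to 221), library 7 had 384 CPM of steroidogenic markers (0.520 to 122) and library 12 had 189 CPM of endothelium markers (0 to 14.5), which was Egfl7 alone, with Pecam1 and Tie1 at 0 CPM. On the lower side library 9 had 8671 CPM of the subcortical maternal complex (487 to 3426) and library 13 had 11287 CPM of stroma markers (63.1 to 4048). Library 15 had 1642 CPM of steroidogenic markers (0.185 to 408), and in every library this sum was Hsd3b1 alone, with Star, Cyp17a1 and Insl3 at 0 CPM. It also had 35132 CPM of blood and immune markers (4.06 to 52.99). Library 16 had 87.1 CPM of endothelium markers (0 to 25.3), all of it Cdh5, and 11819 CPM of cell cycle genes (1110.5 to 3704).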

How the results depend on the processing

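No paired analysis was possible because no test was made and the replicate numbers only name libraries. DESeq2 size factors (0.460 to 6.90) gave 2773 genes higher and 1606 lower, 30 and 17 without overlap (13 of the 49 and 14 of the 33 kept) and 71 granulosa-type genes lower. Comparing library medians on log2(CPM + 1) gave 43 oocyte-type genes higher and, in the control ranking, 553 genes higher. With library medians 755 genes were called higher and 2476 lower. Only 501 of the 1092 genes called higher and 1179 of the 2454 called lower were among them. Most members of the called lists were therefore not kept when medians replaced summed counts. The 4 highest against the 4 lowest libraries gave 283 genes higher and 427 lower without overlap, as fewer libraries leave more genes apart. Leaving out each library gave 50 to 101 genes higher and 40 to 106 lower without overlap, and a median share of 20.7% to 25.7%. All other alternatives, which were other scalings, filters, thinning, unrounded counts and ranking by oocyte-type genes, kept these counts within 1.5 times. Ranking by oocyte-type genes kept 44 of the 49 and 15 of the 33. All 44 named genes that were called kept their direction under every alternative that bears on them. With library medians 39 of the 44 still differed at least 2-fold. Of 21 lists, 18 to 21 kept their side of the median of all genes, and with 4 against 4 libraries the p53 targets crossed it. Unrounded counts and control oocytes as the reference of the share were added after the data were seen. Low levels limit most single genes: a count of 0 on the higher side allows 0.0479 CPM.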

Other observations

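Library 9 combined features of both sides. It carried 1286 CPM of the ranking genes, 8671 CPM of the maternal complex and 675 CPM of Nobox. Oocyte-type and ranking genes together took 1.67% of its counts. Its p53-target sum of 15109 CPM was the highest of the 13 libraries, with 4606 CPM of Cdkn1a, 3874 CPM of Btg2 and 2307 CPM of Plk2, and its granulosa marker sum was 5361 CPM. Library 8, in the middle of the order, had the highest granulosa marker sum, 11974 CPM, and 6277 CPM of Hsd3b1, a steroid dehydrogenase, where the other 12 libraries had at most 1642 CPM. Star, Cyp17a1 and Insl3 were at 0 CPM in all 13. Ranking by oocyte-type genes in place of the 5 ranking genes kept 6 of 6 libraries on the higher side and 5 of 6 on the lower.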
